A study of Mus musculus with 93 samples.

Results

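The 10 genes described here carry or regulate the calcium cycle of the cardiac muscle cell: Ryr2, Casq2, Trdn, Jph2, Itpr2, Atp2a2, Pln, Sln, Slc8a1 and Camk2d. They were taken as a named list whose rule uses no measured value, although the list was drawn up with earlier results of these data known, and all 10 were present among the 24514 gene symbols of the count matrix. In a beating cardiac muscle cell, calcium that enters through the plasma membrane opens the ryanodine receptor Ryr2, which releases more calcium from the sarcoplasmic reticulum, an internal store. The calcium pump Atp2a2 (SERCA2) refills the store under the restraint of the small membrane proteins phospholamban (Pln) and sarcolipin (Sln), while the sodium-calcium exchanger Slc8a1 (NCX1) moves calcium out of the cell. The exchanger is known for its part in the earliest calcium signals of the forming heart, and the proteins of the mature release site, such as Casq2, Trdn and Jph2, are best known from later muscle.

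The study asked whether the progenitors of both heart fields, the first (FHF) and the second (SHF), from which the heart is built, arise in spheroids of mouse embryonic stem cells (ESCs) as they do in embryos. RNA was sequenced from pools of 10 sorted cells, 1 pool per plate well and library, in 4 groups: embryo GFP+ (5 libraries), embryo RFP+ (4), spheroid GFP+ (38) and spheroid RFP+ (46), the spheroids at day 5.5 of differentiation. All 4 groups share the genotype Hcn4-GFP, Tbx1-Cre, Ai9, and the spheroids were grown from an ESC line made from such mice, after induction with Activin A and Bmp4. GFP reports Hcn4, the pacemaker channel gene of the FHF, at the time of the sort, whereas RFP stays on in every descendant of a cell that once had Cre from Tbx1, a gene of the SHF, so RFP+ marks a lineage and not a present state. Embryo titles give embryonic day 8.5 and the extraction protocol gives E7.75. Which embryo or differentiation a well came from is not given, so n is a number of wells and the p-values measure only the spread between wells, which may be in part technical. In pools of this kind fewer cells of a type and less RNA per cell cannot be told apart.

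Levels are given as CPM, the read count of a gene over the total count of its library, times 1000000. Libraries held between 445071 and 5658882 counts, apart from the spheroid GFP+ well C9 with 6288, in which a single read equals 159 CPM. Embryo GFP+ libraries detected 6189 to 8302 genes and embryo RFP+ libraries 10263 to 13052. The sorted populations differed on the reporter genes in the direction of their labels, with overlap in both Hcn4 and Tbx1. Hcn4 had a median of 7.01 CPM in embryo GFP+ and 7.48 CPM in spheroid GFP+ wells and of 0 CPM in both RFP+ groups. Its lowest embryo GFP+ well, at 1.02 CPM, lay under the highest embryo RFP+ well, at 1.35 CPM. It was also detected in 18 of the 46 spheroid RFP+ wells. Tbx1 was at 0 in all 5 embryo GFP+ wells and detected in 2 of the 38 spheroid GFP+ wells, 3 of the 4 embryo RFP+ wells and 41 of the 46 spheroid RFP+ wells. Cardiac muscle identity was checked with 18 sarcomere genes, all detected in embryo GFP+ wells. Their summed level was 26470 to 62540 CPM in embryo GFP+, 1941 to 3257 CPM in embryo RFP+, 159 to 2171 CPM in spheroid GFP+ and 300 to 603 CPM in spheroid RFP+ wells. The 159 CPM is a single read in C9, and the spheroid medians were 635 CPM in GFP+ and 432 CPM in RFP+ wells. The spheroid GFP+ wells thus lay far below the embryo GFP+ wells in muscle genes.

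Gene positions are those of GRCm38, the assembly of mm10. The 3 longest by summed exon length were Ryr2 at chr13:11553102-12106945 with 28.8 kb of exon, Camk2d at chr3:126596302-126846326 with 22.5 kb and Slc8a1 at chr17:81373105-81738377 with 18.8 kb. The exons of Pln, at chr10:53337667-53345987, overlap those of Cep85l on the opposite strand, and without strand in the counting the reads of this pair cannot be told apart. Promoter sequences from RefSeq (GRCm38.p6) were matched for 7 of the 10 genes. The 250 bases before the start are shown for a pair of genes that were lower together in embryo RFP+ cells, Slc8a1 and Ryr2, and for a pair that were lower together in spheroid RFP+ cells, Camk2d and Itpr2. They read 5′ to 3′ on the gene's strand, with capitals on matches, on either strand, to the GATA motif AGATAA, the E-box CANNTG, the T-box motif AGGTGT, MEF2 or the CArG box.
Slc8a1 (chr17:81738388-81738637, minus strand): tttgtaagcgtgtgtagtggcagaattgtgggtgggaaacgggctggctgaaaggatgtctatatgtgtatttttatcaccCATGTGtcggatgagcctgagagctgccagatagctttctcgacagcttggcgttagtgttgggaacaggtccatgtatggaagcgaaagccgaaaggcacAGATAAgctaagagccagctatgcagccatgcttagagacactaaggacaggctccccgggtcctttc
Ryr2 (chr13:12106946-12107195, minus strand): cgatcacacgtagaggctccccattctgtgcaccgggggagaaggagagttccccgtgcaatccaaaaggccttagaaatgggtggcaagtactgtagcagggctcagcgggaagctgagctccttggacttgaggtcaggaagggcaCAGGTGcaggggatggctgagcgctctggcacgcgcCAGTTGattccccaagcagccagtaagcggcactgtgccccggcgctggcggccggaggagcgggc
Camk2d (chr3:126596701-126596950, plus strand): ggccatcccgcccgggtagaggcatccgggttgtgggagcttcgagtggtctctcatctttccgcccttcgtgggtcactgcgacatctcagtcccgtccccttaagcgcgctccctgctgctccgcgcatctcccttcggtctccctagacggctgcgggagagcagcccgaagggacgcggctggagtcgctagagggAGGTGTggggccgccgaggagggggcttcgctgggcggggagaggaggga
Itpr2 (chr6:146502224-146502473, minus strand): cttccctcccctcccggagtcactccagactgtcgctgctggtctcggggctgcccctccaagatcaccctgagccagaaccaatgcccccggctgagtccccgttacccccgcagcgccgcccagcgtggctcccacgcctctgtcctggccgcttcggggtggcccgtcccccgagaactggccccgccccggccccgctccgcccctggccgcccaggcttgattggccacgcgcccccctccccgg
Slc8a1 held 1 GATA match and 1 E-box, Ryr2 held 2 E-boxes, Camk2d held 1 T-box match, and the Itpr2 window held no match; no marked matches overlap. Among 32536 promoter windows of the same length, 66.2% held an E-box, 9.97% the GATA motif, 11.9% the T-box motif, 1.48% a CArG box and 0.513% a MEF2 motif. These matches describe letters only and are not sites of binding.

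**Figure D1:**
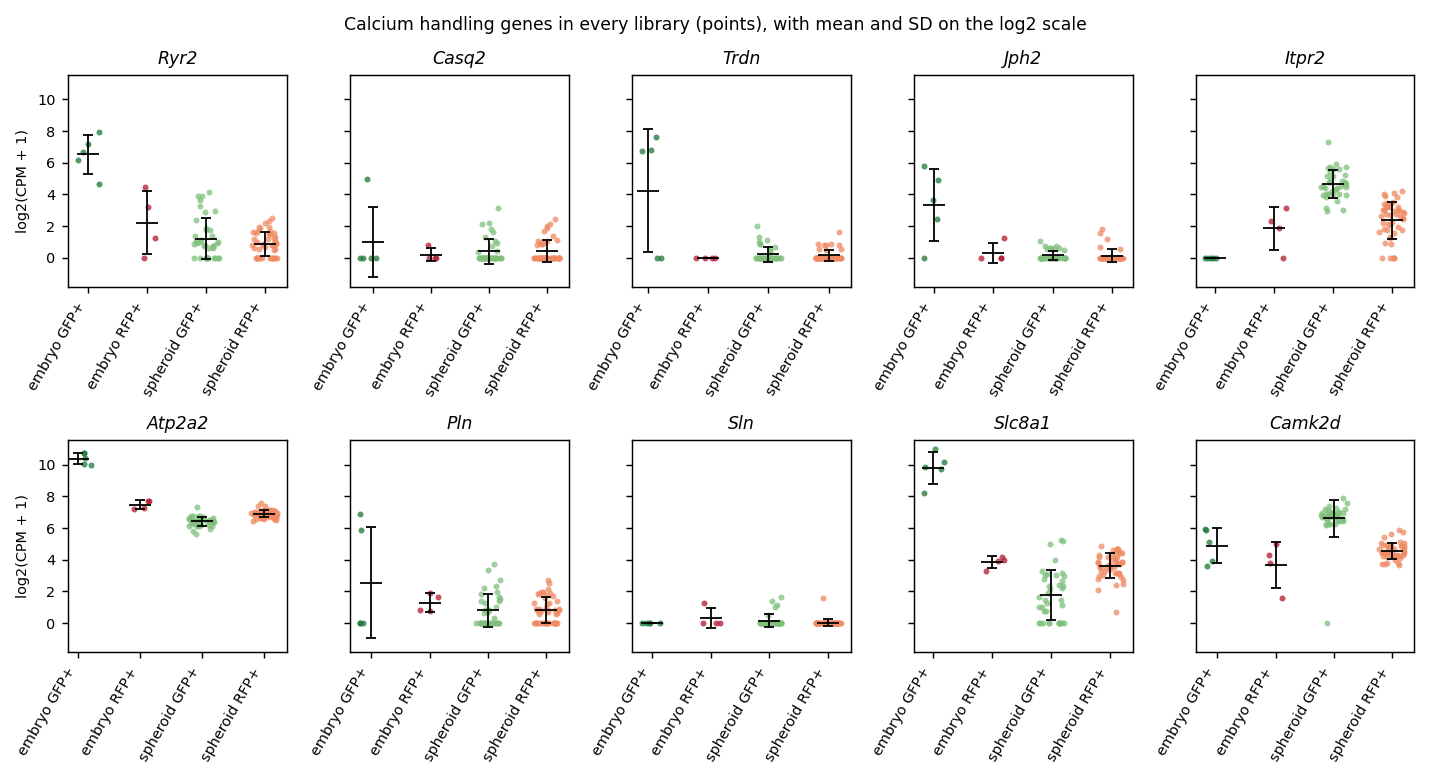
Level of each calcium handling gene on the log2(CPM + 1) scale (y axis) in every library (points) of the 4 groups (x axis), with the mean and SD as black bars. Atp2a2 and Slc8a1 of embryo GFP+ cells stand above all other groups, Camk2d and Itpr2 are highest in spheroid GFP+ cells, and the single spheroid GFP+ point at 0 for Camk2d is well C9 with 6288 counts.

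The comparison of the populations in embryos asked how far FHF and SHF cells differ in these genes where they arise naturally. The exchanger Slc8a1, the pump Atp2a2 and the release channel Ryr2 were lower in embryo RFP+ than in embryo GFP+ cells, with edgeR log2 changes of -6.26, -2.95 and -3.98. Of the 10 genes, 4 passed the low-count filter and 3 of these were called lower in RFP+ at an adjusted p under 0.1, where 3.88% of the 8503 genes tested were called lower 6.21% higher and 10.1% in either direction. The other 6 genes were too sparse for the filter and are given by their values. The median log2 change of the 4 tested genes was -3.47, against 0.09 for all genes tested, and since a gene can pass the filter through the group in which it is high, this median is only a description. Scaling by DESeq2 size factors moved the median of all genes to -0.04.

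Among the genes that move calcium out of the cytosol, Slc8a1 had the widest gap. In embryo GFP+ wells A12, B12, C12, D12 and E12 it stood at 294, 1981, 828, 920 and 1127 CPM, and in RFP+ wells F12, G11, G12 and H11 at 14.6, 14.3, 16.9 and 8.78 CPM. Every GFP+ well lay above every RFP+ well, a separation in this direction that 3.73% of all tested genes showed. The group means were 1030 ± 614 CPM (SD, n = 5) and 13.6 ± 3.43 CPM (SD, n = 4), and the log2 change from GFP+ to RFP+ was -6.26 (SE 0.56, edgeR adjusted p = 3.39e-05).

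Atp2a2 showed the same order with less spread. Its GFP+ wells held 1067, 988, 1372, 1703 and 1710 CPM and its RFP+ wells 207, 143, 153 and 206 CPM. No wells overlapped, and the RFP+ wells held 191 to 305 reads of the pump against 13 to 21 reads of the exchanger. The means of 1368 ± 341 CPM (SD, n = 5) and 178 ± 33.9 CPM (SD, n = 4) gave a log2 change of -2.95 (SE 0.26, edgeR adjusted p = 2.46e-05). Per kb of exon Atp2a2 was also the most abundant of the 10 genes in embryo GFP+ cells, at 225 CPM per kb against 54.8 CPM per kb for Slc8a1.

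The restraining partners of the pump were uneven or absent. Pln was at 0 in GFP+ wells A12, C12 and D12 and at 119 and 56.9 CPM in B12 and E12, whereas all 4 RFP+ wells held between 0.676 and 2.73 CPM. The populations overlapped, and the difference did not pass the exact permutation test (two-sided p = 0.556, n = 5 and 4), with an adjusted p of 0.0997 in DESeq2 and 0.219 in edgeR without the low-count filter. Sln, a partner of the pump in atrial and skeletal muscle, was at 0 in all GFP+ wells and had 2 reads in RFP+ well F12 alone, under the limit that a count of 0 allows (3 reads, or 3.06 CPM in well A12). No fold is given for it (exact permutation p = 0.889, two-sided, n = 5 and 4). With 5 against 4 wells the smallest p this test can give is 0.0159.

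The release site genes were found mainly in GFP+ cells but not in every well. Ryr2 stood at 144, 247, 71.6, 23.8 and 101 CPM in GFP+ wells A12 to E12 and at 21.2, 1.37, 0 and 8.11 CPM in RFP+ wells F12, G11, G12 and H11. The lowest GFP+ well was just above the highest RFP+ well. The log2 change was -3.98 (SE 1.32, edgeR adjusted p = 0.0988), and the call was lost when any 1 of 6 wells was left out: A12 (0.132), B12 (0.22), E12 (0.115), G11 (0.265), G12 (0.148) or H11 (0.25), with the edgeR adjusted p in parentheses.

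Trdn, which encodes triadin, an anchor of the release channel, was at 105, 110 and 197 CPM in GFP+ wells B12, D12 and E12 and at 0 in A12, C12 and every RFP+ well. Mean levels were at least 38-fold higher in GFP+ when 3 reads per library stand for 0. The exact permutation test did not pass (two-sided p = 0.238, n = 5 and 4), whereas edgeR without the low-count filter gave an adjusted p of 0.0299 and DESeq2 an adjusted p of 0.00152. Jph2, which encodes junctophilin that ties the store to the plasma membrane, held 0, 11.5, 54.7, 28.7 and 4.37 CPM in GFP+ wells A12 to E12 and 2 reads in RFP+ well H11 alone. Its pooled counts were 51.5 times higher in GFP+ (95% counting interval 14.0 to 429), with an exact permutation p of 0.0794 (two-sided, n = 5 and 4) and an adjusted p of 0.0124 in DESeq2 and 0.132 in edgeR without the filter. The pair was not seen in the same wells throughout, since C12 had the highest Jph2 level and no Trdn read.

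Casq2, the cardiac calcium buffer of the store, was found in 1 GFP+ well, B12, with 76 reads or 30.1 CPM, and as 1 read in RFP+ well F12. The pooled ratio was 57.1 with a counting interval of 9.95 to 2286, and it rests on well B12 entirely (exact permutation p = 1.0, two-sided, n = 5 and 4). Its relative Casq1, the calsequestrin best known from skeletal muscle, stood at 8.17, 337, 57.5, 270 and 364 CPM in GFP+ wells A12 to E12 and between 4.78 and 11.5 CPM in RFP+ wells. Well A12 lay inside the RFP+ range and the other 4 GFP+ wells above it. The 12 skeletal muscle markers summed to 49.1 to 1976 CPM in embryo GFP+ and 67.4 to 97.6 CPM in embryo RFP+ wells. Of these, 6 were at 0 in GFP+ wells (Myod1, Myog, Myf5, Myf6, Ckm and the symbol Tmem8c), while Acta1, the skeletal actin gene that embryonic heart muscle also uses, was lower in RFP+ (950 against 42.1 CPM, log2 change -4.55, SE 1.17, edgeR adjusted p = 0.0272, or 0.11 without well H11). The part of such cells in the Casq1 difference was not tested. Casq1 was lower in RFP+ (log2 change -4.70, SE 1.03, edgeR adjusted p = 0.0125), and per kb of exon the embryo GFP+ mean was 106 CPM per kb for Casq1 and 2.20 CPM per kb for Casq2.

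Itpr2, a receptor for inositol trisphosphate that releases calcium without the ryanodine receptor, ran the other way. It had no read in any GFP+ well and stood at 8.03, 2.73, 0 and 4.05 CPM in RFP+ wells F12, G11, G12 and H11. By counting error alone the RFP+ mean was at least 1.42-fold higher, a bound that does not cover the lower number of genes detected in GFP+ wells. The exact permutation p was 0.0952 (two-sided, n = 5 and 4), with an adjusted p of 0.0846 in edgeR without the filter and 0.219 in DESeq2. Camk2d, the kinase that phosphorylates the release channel and phospholamban, had GFP+ values of 60.2, 34.1, 14.0, 57.8 and 10.9 CPM and RFP+ values of 31.4, 18.4, 12.8 and 2.03 CPM. The wells overlapped and no difference was detected (log2 change -1.18, SE 1.28, edgeR adjusted p = 0.819).

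Between 4 and 8 of the 10 genes were detected in each embryo well of either population. In GFP+ wells B12 had 8 and A12 had 4, and B12 had the highest summed sarcomere level (62540 CPM) while C12 had the lowest (26470 CPM). Markers of other cells also differed between the embryo populations. Of 5 endothelium markers tested, 3 were higher in RFP+ cells, where 6.21% of all genes were. The summed level of all 9 was 2.04 to 104 CPM in GFP+ and 210 to 489 CPM in RFP+ wells, and Pecam1, Cdh5, Tie1 and Emcn were at 0 in GFP+ cells. Endoderm markers summed to 0 to 20.3 CPM in GFP+ and 8.78 to 648 CPM in RFP+ wells, and blood markers to at most 1.09 CPM in GFP+ wells and 1160 CPM in 1 RFP+ well. Smooth muscle markers, many of which early cardiac muscle also expresses, summed to 4495 to 10750 CPM in GFP+ and 506 to 1083 CPM in RFP+ wells. The part of these cells, and of the lower number of genes detected in GFP+ wells, in the changes of the calcium genes was not tested.

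**Figure D2:**
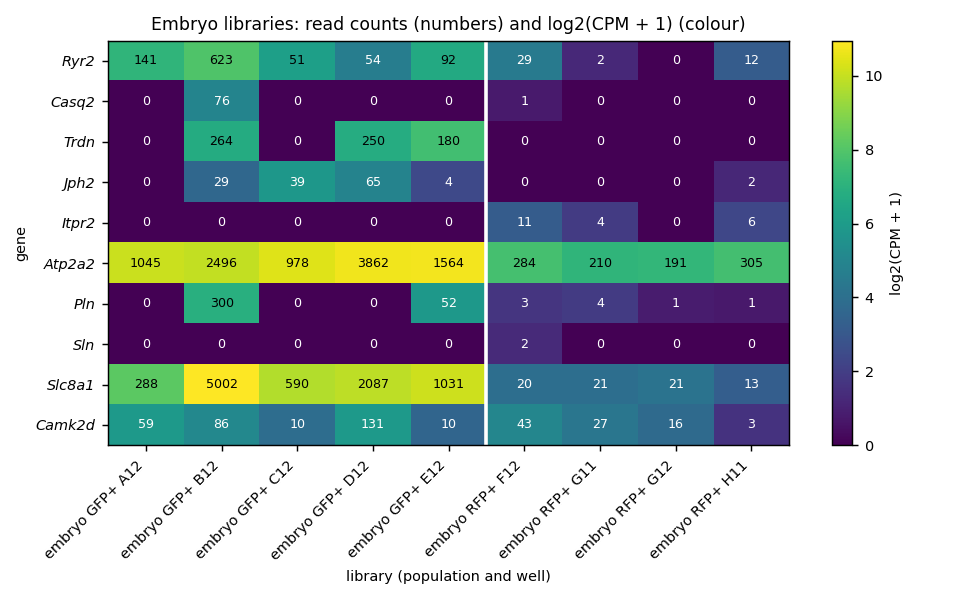
Read counts (numbers in the cells) and log2(CPM + 1) (colour) of the 10 genes (rows) in the 9 embryo libraries (columns, named by population and well). Atp2a2, Slc8a1 and Camk2d have reads in all 9 libraries, whereas Casq2, Trdn, Jph2 and Pln are absent from at least 1 of the 5 GFP+ libraries, and Itpr2 and Sln from all 5.

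The same comparison in spheroids asked whether the populations of a dish differ in the same way. Camk2d and Itpr2 were lower in spheroid RFP+ than in spheroid GFP+ cells, by 4.77-fold and 4.51-fold, and Atp2a2 and Slc8a1 were higher, by 1.42-fold and 2.25-fold. Here 4 of the 10 genes passed the low-count filter and all 4 were called, 2 in each direction. With 84 wells, 77.9% of the 9940 genes tested were called (40.1% lower and 37.8% higher in RFP+), so the calls of all 4 are read against that share. The GFP+ and RFP+ spheroid wells fill different plate columns, so an effect of the column and of the population cannot be told apart. In the same way the embryo populations fill different plate rows. Within each population the embryo and spheroid wells fill different columns. Effects of these positions cannot be told apart from those of population or source either. Markers of other cells moved with the populations here too. Pluripotency markers summed to 63.0 to 1629 CPM in GFP+ and 6.38 to 556 CPM in RFP+ wells. Endoderm markers summed to 179 to 636 CPM in GFP+ and 17.5 to 192 CPM in RFP+ wells, with medians of 288.5 and 97.0 CPM. The 636 CPM is well C9, in which a single read equals 159 CPM. The part of these cells in the changes of the calcium genes was not tested.

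Spheroid values are given as the lowest, the median and the highest well. Camk2d ran from 0 through 108 to 241 CPM over 38 GFP+ wells and from 11.6 through 21.3 to 58.8 CPM over 46 RFP+ wells. The 0 is well C9. In the other 37 GFP+ wells the lowest value was 70.8 CPM, above every RFP+ well, a separation in this direction that 2.04% of all tested genes showed without C9. Means were 112 ± 38.3 CPM (SD, n = 38) and 24.3 ± 10.1 CPM (SD, n = 46), and the log2 change was -2.25 (SE 0.10, edgeR adjusted p = 5.92e-37). Itpr2 ran from 6.69 through 22.2 to 159 CPM in GFP+ and from 0 through 5.45 to 17.3 CPM in RFP+ wells. The 159 CPM is 1 read in C9, and without this well the highest was 60.5 CPM and the mean 26.0 ± 14.0 CPM (SD, n = 37). The Itpr2 populations overlapped, with a log2 change of -2.17 (SE 0.21, edgeR adjusted p = 1.8e-16).

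Atp2a2 varied little between spheroid wells. It ran from 47.5 through 86.2 to 159 CPM in GFP+ wells, or to 108 CPM without C9, and from 86.0 through 121 to 194 CPM in RFP+ wells. Without C9 the populations overlapped between 86.0 and 108 CPM, and the lowest RFP+ well was near the GFP+ median. The difference was small, with means of 85.9 ± 18.7 CPM (SD, n = 38) and 120 ± 21.2 CPM (SD, n = 46). The log2 change was 0.50 (SE 0.06, edgeR adjusted p = 2.15e-13). Slc8a1 ran from 0 through 1.98 to 37.4 CPM in GFP+ wells, where 27 of 38 had a read, and from 0.664 through 12.3 to 28.1 CPM in RFP+ wells, where all 46 had one. Wells D8, G10 and B9, at 37.4, 35.7 and 31.0 CPM, were above every RFP+ well although the GFP+ median was lower. The log2 change was 1.17 (SE 0.30, edgeR adjusted p = 0.000392).

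The remaining 6 genes were close to the level of single reads in spheroids. Ryr2 had a median of 0.839 CPM and a highest value of 17.0 CPM in GFP+ wells, against 0.791 and 4.64 CPM in RFP+ wells. It was not called by the permutation test (two-sided p = 0.141 with 100000 resamples), but DESeq2 gave an adjusted p of 0.00424 and edgeR without the filter 0.00893, both lower in RFP+. Casq2, Trdn and Jph2 had a median of 0 CPM in both populations and were detected in 28.9%, 23.7% and 23.7% of GFP+ and 30.4%, 19.6% and 10.9% of RFP+ wells. Pln was detected in 19 of 38 GFP+ wells and 28 of 46 RFP+ wells, with means of 1.42 ± 2.65 CPM (SD, n = 38) and 1.07 ± 1.33 CPM (SD, n = 46). The permutation tests of these 4 genes gave two-sided p-values between 0.438 (Trdn) and 0.994 (Casq2). Sln had 16 reads over 5 GFP+ wells and 2 reads in 1 RFP+ well, a pooled ratio of 8.48 with a counting interval of 1.995 to 76.1 (permutation p = 0.134, two-sided), and edgeR without the filter gave an adjusted p of 0.00103.

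**Figure D3:**
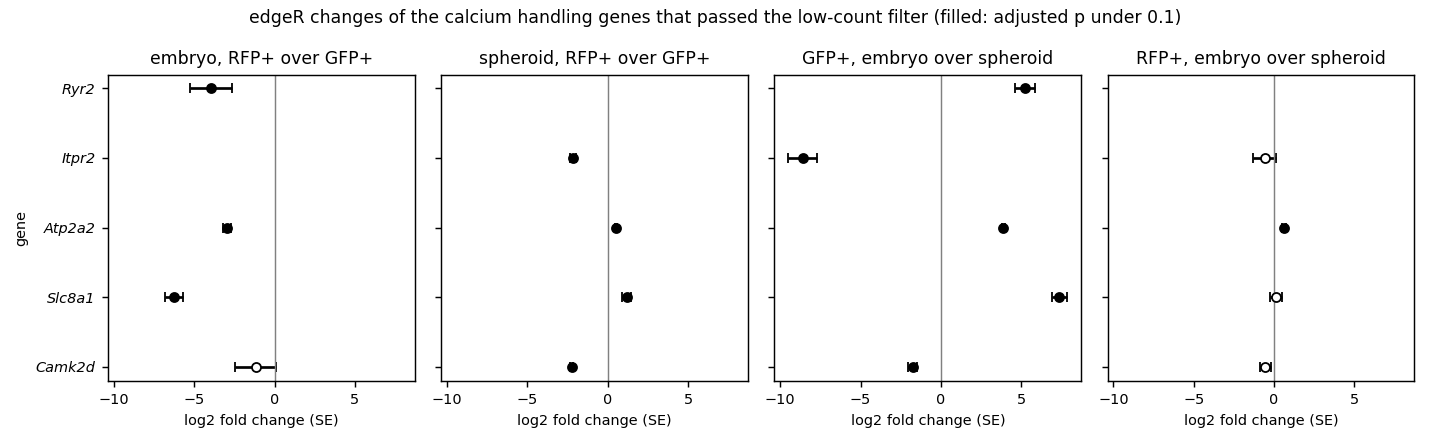
Log2 fold change with its SE (x axis) of the genes that passed the low-count filter (y axis) in the 4 edgeR comparisons, filled where the adjusted p is under 0.1. Atp2a2 and Slc8a1 lie left of 0 in embryos and right of 0 in spheroids for RFP+ over GFP+, and both lie far right of 0 for GFP+ embryo over spheroid.

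The change from GFP+ to RFP+ was then compared between embryos and spheroids for the genes tested in both. The direction was opposite for Atp2a2 and Slc8a1. For Atp2a2 the embryo change minus the spheroid change was -3.45 on the log2 scale (SE 0.26, adjusted p = 0.00929 from the difference of the edgeR fits), and for Slc8a1 it was -7.43 (SE 0.64, adjusted p = 0.0109). Both were called, where 5.26% of the 8182 genes tested in both were called 2.10% in this direction and 3.15% in the other. For Camk2d, called lower in RFP+ in spheroids only, no difference between the changes was detected (1.08, SE 1.28, adjusted p = 0.909). An interaction term in 1 edgeR fit over the 4 groups did call it (1.03, adjusted p = 0.0346). The other 7 genes were not tested in both. The calls of Atp2a2 and Slc8a1 held with each embryo library left out, with adjusted p-values up to 0.0297 and 0.0307.

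Setting the same population of embryo and dish side by side shows where the levels part. In GFP+ cells 5 of the 10 genes passed the filter and all were called, where 68.0% of 11822 genes were called (19.7% higher and 48.3% lower in embryos). Slc8a1, Ryr2 and Atp2a2 were higher in embryo GFP+ cells, with log2 changes of 7.38 (SE 0.49), 5.23 (SE 0.60) and 3.88 (SE 0.10) and edgeR adjusted p-values of 2.05e-18, 1.76e-10 and 4.73e-34. None of these 3 overlapped between the sources, a separation that 2.53% of genes showed in this direction and 4.37% in the other. Camk2d was lower in embryo GFP+ cells (-1.76, SE 0.29, edgeR adjusted p = 8.84e-07), and Itpr2, at 0 in all embryo GFP+ wells and at 6.69 CPM or more in every spheroid GFP+ well, was at least 9.93-fold lower by the spheroid mean without C9. The Itpr2 call was lost with limma voom and a variance per group (log2 change -6.09, adjusted p = 0.249). Embryo GFP+ libraries detected a median of 6830 genes against 13689 in spheroid GFP+ libraries. The part of this gap in the Itpr2 zeros was not tested, and the bound from 3 reads does not cover it. The median of all genes was -0.67 with TMM and -0.22 with DESeq2 size factors, a choice that moved the split of calls from 2326 higher and 5710 lower to 3473 higher and 4687 lower. Relative to the TMM median, every change of the 5 tested genes kept its direction. Of the genes under the filter, Trdn, Jph2 and Pln were higher in embryo GFP+ cells by DESeq2 (adjusted p = 2.74e-08, 3.65e-08 and 0.000305). Each was absent from some embryo GFP+ wells. Casq2 was called by edgeR without the filter (adjusted p = 0.00429), with embryo GFP+ reads in well B12 alone. Sln was not called by that fit (adjusted p = 0.121).

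In RFP+ cells the differences between the sources that passed the test were fewer. Of 4 genes tested 1 was called, where 42.6% of 11147 genes were called and 20.1% were higher in embryos. Atp2a2 was higher in embryos, at 178 against 120 CPM (log2 change 0.62, SE 0.12, edgeR adjusted p = 3.66e-05). Slc8a1 had means of 13.6 and 13.0 CPM and a log2 change of 0.12 (SE 0.39, edgeR adjusted p = 0.844), Itpr2 -0.60 (SE 0.71, 0.543) and Camk2d -0.55 (SE 0.33, 0.201), each with the edgeR adjusted p after the SE. Without well F12 the Camk2d difference was called (edgeR adjusted p = 0.0329). Ryr2, under the filter, averaged 7.66 CPM in embryo RFP+ and 1.11 CPM in spheroid RFP+ wells, and it was higher in embryos by DESeq2 (log2 change 2.85, adjusted p = 0.00325) and by edgeR without the filter (2.73, adjusted p = 0.00181). Sln was called by edgeR without the filter (adjusted p = 0.0782), on 2 reads in each source. Each library enters 2 of the 4 comparisons, so they are not independent of each other.

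The order of the group means differed from gene to gene. Atp2a2 went from embryo GFP+ through embryo RFP+ and spheroid RFP+ to spheroid GFP+, and each neighbouring pair differed. Slc8a1 followed the same order, but embryo RFP+ and spheroid RFP+ did not differ beyond their spread. Camk2d went from spheroid GFP+ through embryo GFP+ and spheroid RFP+ to embryo RFP+. The middle pair was not compared, and the last pair did not differ beyond its spread. Itpr2 went from spheroid GFP+ through spheroid RFP+ and embryo RFP+ to embryo GFP+, and the drop from spheroid GFP+ to spheroid RFP+ passed the filtered edgeR test, while the embryo pair was called only by edgeR without the filter, as given above. Ryr2 went from embryo GFP+ through embryo RFP+ and spheroid GFP+ to spheroid RFP+, and its top pair passed the filtered edgeR test by the narrow margin given above. The middle pair was not compared, and the lowest pair was called by DESeq2 and by edgeR without the filter but not by the permutation test.

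Over the 37 spheroid GFP+ wells above 100000 counts, most pairs of the genes had a low correlation. Ryr2, Pln and Slc8a1 had no read in 11, 18 and 10 of these wells. A low r with these genes cannot be told apart from counting noise. Pairwise Pearson r of log2(CPM + 1) among the 6 genes detected in most wells ran from -0.211 (Slc8a1 with Camk2d) to 0.205 (Ryr2 with Slc8a1), apart from 0.439 for Itpr2 with Slc8a1, while r with log2 total counts ran from -0.264 (Atp2a2) to 0.278 (Itpr2). In the 46 spheroid RFP+ wells Itpr2 with Atp2a2 gave -0.436, and both varied with depth (0.288 and -0.469). The genes most like Camk2d over the 37 wells, among 10428 genes, were Oxsr1 (r = 0.605), F8a (0.584) and 2810004N23Rik (0.575). Those most like Atp2a2 were Csnk2a1 (0.652), Tgfb1i1 (0.597) and Arfgef2 (0.591), and those most like Itpr2 were Tmcc1 (0.655), Bmp4 (0.631) and Kctd5 (0.604). These values are descriptions with no test, over GFP+ wells that differed in depth from 828193 to 4371849 counts.

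The wider calcium toolkit was read from 4 lists. Of 21 further genes of the store and its junctions, 12 were tested in embryos. Of the 12, 3 were lower in RFP+ cells and none higher, where 3.88% and 6.21% of all genes were, with a median log2 change of -0.64. Besides Casq1 these were Srl, which encodes the store protein sarcalumenin (201 against 17.5 CPM, log2 change -3.56, SE 1.16, edgeR adjusted p = 0.0914), and Calr, the chaperone and calcium buffer calreticulin (2087 against 824 CPM, -1.36, SE 0.24, edgeR adjusted p = 0.00378). Srl was at 0 in GFP+ well C12, and its call was lost without B12, D12, E12 or any 1 of the 4 RFP+ wells (edgeR adjusted p of 0.132 to 0.268). In spheroids 10 of the list were tested, 5 were higher in RFP+ and 4 lower, with a median of 0.09, where 77.9% of all genes were called (37.8% higher and 40.1% lower). The largest rise was that of Itpr1, another inositol trisphosphate receptor (27.1 against 50.1 CPM, 0.82, SE 0.12, edgeR adjusted p = 2.21e-09), and the largest fall that of Tmem38a, a counter-ion channel of the store (29.1 against 10.4 CPM, -1.52, SE 0.16, edgeR adjusted p = 8.64e-15).

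Among 24 genes of calcium entry and extrusion at the plasma membrane, 7 were tested in embryos. Of the 7, 3 were lower in RFP+ and none higher, where 3.88% and 6.21% of all genes were, with a median of 0.04. They were the channel subunit Cacna2d2 (36 CPM against 0 in all 4 RFP+ wells, edgeR adjusted p = 0.0217), the L-type channel Cacna1d (151 against 4.5 CPM, -5.07, SE 1.37, edgeR adjusted p = 0.0374, or 0.116 without well F12) and the calcium pump Atp2b1 (439 against 133 CPM, -1.72, SE 0.36, edgeR adjusted p = 0.0113). In spheroids 6 were tested, 1 was higher in RFP+ and 4 were lower, a share of 83.3% called against 77.9% of all genes, with a median of -0.89. Orai3, a store-operated channel, went from 41.4 to 13.7 CPM (-1.63, SE 0.13, edgeR adjusted p = 1.79e-20), and Cacna2d1 and the store sensor Stim1 were lower too, by log2 changes of -1.46 and -1.34.

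Of 17 genes for calmodulin, kinases and phosphatases, 15 were tested in each source. In embryos Prkar1a, a regulatory subunit of protein kinase A, was lower in RFP+ (689 against 358 CPM, -0.97, SE 0.30, edgeR adjusted p = 0.0758, or 0.118 to 0.267 without B12, D12, E12 or any 1 of the 4 RFP+ wells), and the median of the 15 genes was -0.14. In spheroids 10 were higher and 4 lower, a share of 93.3% called against 77.9% of all genes, with a median of 0.41. S100a1, a calcium sensor known to bind the release channel and the pump, was lower in RFP+ (155 against 25.8 CPM, -2.63, SE 0.12, edgeR adjusted p = 7.31e-38), and Ppp1r1a, an inhibitor of protein phosphatase 1, was higher (15 against 56.7 CPM, 1.87, SE 0.13, edgeR adjusted p = 1.87e-24).

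Of 8 genes of mitochondrial calcium uptake, 7 were tested in each source. In embryos Vdac1, a channel of the outer membrane, was lower in RFP+ (449 against 167 CPM, -1.46, SE 0.36, edgeR adjusted p = 0.0196). No other was called, where 10.1% of all genes were, and the median was -0.70. In spheroids 1 was higher and 4 lower, a share of 71.4% called against 77.9% of all genes, with a median of -0.29. Ccdc109b, a subunit of the uptake channel, went from 23.7 to 5.69 CPM in RFP+ cells (-2.08, SE 0.20, edgeR adjusted p = 2.27e-16). The median over all tested genes was 0.09 in embryos and -0.02 in spheroids. By comparison, 16 of 17 tested sarcomere markers were lower in embryo RFP+ cells with a median of -4.45, where 3.88% of all genes were lower. In spheroids 4 of 5 tested were lower, where 40.1% of all genes were, with a median of -1.44. That median is the value of Myl7, which changed sign to 0.54 with limma voom (adjusted p = 0.384) and was not called with plate row as a covariate (edgeR adjusted p = 0.134).

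**Figure D4:**
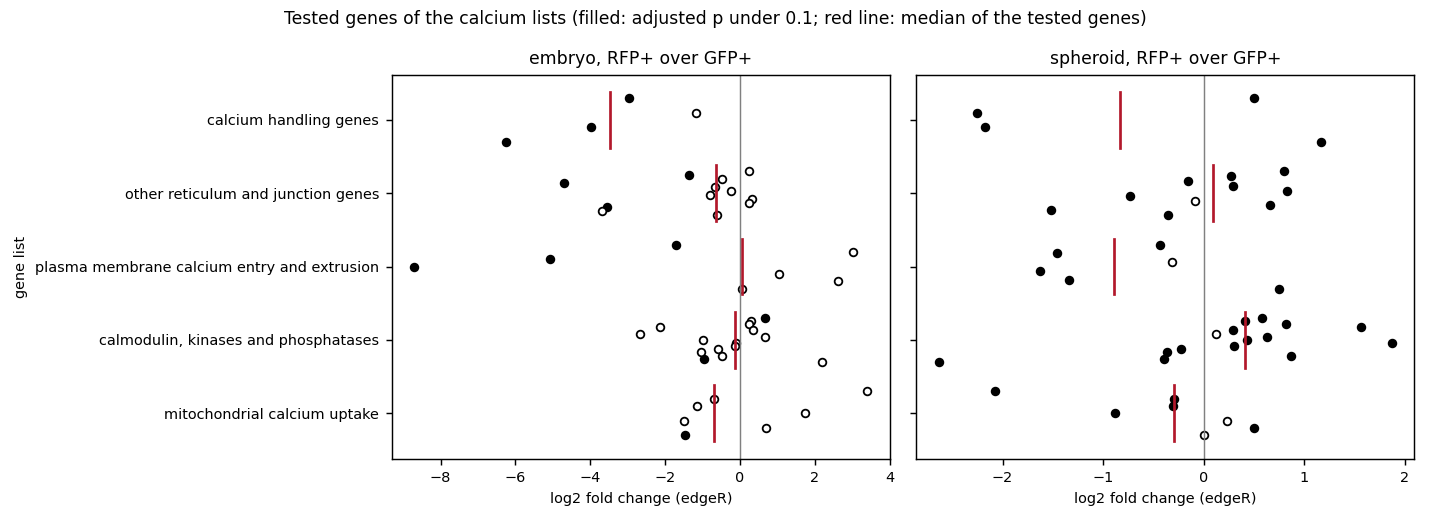
Log2 fold change of RFP+ over GFP+ (x axis, with a different range in each panel) for each tested gene (points) of the calcium handling genes and 4 further calcium lists (y axis) in embryos and spheroids, filled where the edgeR adjusted p is under 0.1. Red lines are medians of tested genes. In embryos 3 of the 4 tested calcium handling genes lie at a log2 change of -2.95 or lower, and in spheroids the same list is split 2 and 2.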

How the data were processed

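For 93 libraries the authors deposited read counts per gene without normalization. Per the labels and the study's methods these came from Trimmomatic 0.36 (quality of at least 35 and length of at least 36), HISAT2 2.0.4 on mm10 and featureCounts 1.5.2. The reads carry no molecular identifiers, so intervals (95%) and limits cover counting error only. CPM use total counts. The 4 pairs of groups were each compared in R 4.3.3 with the edgeR 4.0.16 quasi-likelihood test (TMM, filterByExpr with minimum count 10, minimum total 15 and minimum proportion 0.7, Benjamini-Hochberg adjusted p under 0.1 over all genes tested). DESeq2 1.42.0 and limma 3.58.1 served as alternatives. The change of embryos was set against that of spheroids with separate standard errors and 7 degrees of freedom. Genes under the filter were tested on log2(CPM + 1) by two-sided permutation in SciPy 1.17.1, exact in embryos and unadjusted. Scripts were tested on simulated counts. Exon lengths come from GENCODE for GRCm38. Spheroid RFP+ wells of columns 3 and 4 in 1 row (7 pairs) resembled each other more than others did (chi-square per degree of freedom 1.33 to 2.29, against 2.61 to 13.8). They differed by more than sampling noise and were kept as separate libraries. Without molecular identifiers this does not show that they are separate pools. With each pair summed, 7582 spheroid genes were called in place of 7747. Camk2d, Itpr2, Atp2a2 and Slc8a1 kept their calls (edgeR adjusted p up to 0.00101).

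The 10 genes and the lists were chosen with earlier results of these data known. All 10 are reported. Of the other lists, at most the 3 called genes with the largest log2 change in each direction are named, and for likeness the 3 genes with the highest r for the 3 genes most abundant in spheroid GFP+ cells. Of 22 further store genes 21 were found. One gene that this rule names is not reported here.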

Additional observations from a re-analysis of the deposited data

Results flagged for a closer look

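Atp2a2 and Slc8a1 changed in opposite directions between the populations of embryos and of spheroids, and the difference of the 2 changes passed its test. The embryo change of Atp2a2 from GFP+ to RFP+ minus its spheroid change was -3.45 on the log2 scale (adjusted p = 0.00929 from the edgeR fits), and that of Slc8a1 was -7.43 (adjusted p = 0.0109). Among the 23 named calcium genes tested in this way, the difference also passed for Calr (-1.63, adjusted p = 0.0262) and Vdac1 (-1.46, adjusted p = 0.0935). Calr changed by -1.36 in embryos and 0.27 in spheroids. Vdac1 was lower in embryo RFP+ cells and without a detected change in spheroids.

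In 4 of 21 sets of embryo values a single well stood far from the others. The usual rate of about 1 in 20 by chance does not apply here, since a set with reads in a single well always meets the rule, as all 4 do. Casq2 was at 30.1 CPM in GFP+ well B12 and at 0 in the other 4 GFP+ wells. The other 3 sets rest on 1 or 2 reads: Casq2 at 0.730 CPM in RFP+ well F12, Sln at 1.46 CPM in the same well, and Jph2 at 1.35 CPM in RFP+ well H11.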

How the results depend on the processing

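Settings are given as calls of all genes and then of the 10 calcium genes. In embryos 858 and 3 genes were called, 1945 and 6 with DESeq2, 2000 and 5 without the low-count filter, and 2271 genes with limma voom and a variance per group, while leaving out 1 library gave 613 to 1044 genes. In spheroids 7747 genes became 13109 without the filter. Between the GFP+ groups 8036 and 5 became 2291 genes with voom, and 8 and 9 calcium genes were called with DESeq2 and without the filter. Between the RFP+ groups 4745 and 1 became 2125 genes with voom, 2 calcium genes with DESeq2 and 3 without the filter, and leaving out 1 library gave 1 to 2. For the change that differs between sources, 430 and 2 became 6889 and 6 with an interaction term in 1 edgeR fit, 1422 genes with voom, 247 genes at an adjusted p under 0.05 (a setting added after the data had been seen), and 241 to 634 with 1 library left out, lowest without G11. None of the genes under the filter passed a permutation test at 0.05, and 4 such results were called by edgeR without the filter. The cause of these shifts was not tested.

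Slc8a1 and Atp2a2 were called in embryos in all 15 fits run. The Ryr2 call held in 8 of 15, and was lost with total counts in place of TMM. Of the changes of single genes, 805 results under an alternative kept their direction and side of the threshold, 51 lost the call, 2 gained it and 2 changed sign: Slc8a1 between RFP+ sources, not called in any setting, at -0.015 without G12 (0.27 without H11), and Myl7 in spheroids, called at -1.44 and at 0.54 with voom. No paired analysis was possible because the wells share no replicate numbers. With plate row as a covariate 7754 spheroid genes were called, all 4 calcium genes among them (Slc8a1 at 1.34).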
